A study of Mus musculus with 6 samples.

Results

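In 44 of the 254 stretches of 10 Mb that make up the mouse autosomes outside proximal chromosome 7, round spermatids had at least 30 TH2B islands and at least 1.4 times as many as spermatocytes. These gaining bins were chosen by counts of islands. Chromosomes 1 to 19 of build mm9 were cut into bins from position 0, the first 40 Mb of chromosome 7 were left out, and islands were counted by their midpoints. A bin was kept where round spermatids had at least 30 islands and at least 1.4 times the spermatocyte count. The gaining bins held 1818 of 15585 spermatocyte islands, 2987 of 17340 round spermatid islands and, beside them, 2794 of 13582 wild-type islands. The rule used the 2 tagged counts, so these counts and their ratio are a description, and the wild-type islands, the folds over input and the input reads are what the rule did not count.

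TH2B is a testis variant of the core histone H2B. It enters chromatin as germ cells go through meiosis, replaces much of the somatic H2B, and stays there in round spermatids, the haploid cells that follow meiosis. Later in sperm formation most histones are removed and protamines take their place.

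Chromatin immunoprecipitation and sequencing (ChIP-seq) was done on germ cells of adult mice, with 1 ChIP and 1 input library per group. Th2b+/tag mice carry 1 copy of the gene with His, Flag and HA tags at the end of the protein, and an antibody to HA was used on spermatocytes (meiotic) and on round spermatids (post-meiotic) from a BSA gradient. Wild-type mice have no tagged copy, and an antibody to TH2B itself was used on total male germ cells, a mixture of all stages. The tagged mice keep an untagged copy of the gene, whose product the HA antibody does not report, and the purity of the fractions is not given in the sources used here. The protocol in the labels can also be read as 1 pool of both tagged cell types, and the separate cell types in the sample labels were followed. Antibody, genotype and cells all differed between the wild-type list and the tagged lists, so their effects cannot be told apart.

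An island is a broad stretch in which ChIP reads exceeded input reads after scaling by the constant of its list. The islands held 2375595 ChIP and 1966489 input reads in spermatocytes, 3061563 and 2400549 in round spermatids, and 1872812 and 1333472 in wild-type germ cells. There were no replicates, so no difference could be set against the spread between animals. Intervals are 95% and cover counting error only. A longer list can come from more reads as well as from more TH2B, and a place without an island is one where no island was called.

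Of the bins, 214 reached the minimum of 30 round spermatid islands, and 44 of these (20.6%) reached the ratio. By the mirror rule, with at least 30 spermatocyte islands and at least 1.4 times as many as in round spermatids, 5 of 200 bins (2.5%) were kept. Over all 254 bins the round spermatid list had 1.09 times as many islands (1.07 to 1.11) as the spermatocyte list, so the rule was easier to meet in the first direction. With the round spermatid list shortened to as many islands as the spermatocyte list, 25 of 212 eligible bins (11.8%) were kept. Round spermatid islands exceeded spermatocyte islands by 1169 in the gaining bins and by 1325 in all 254 bins.

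By the rule itself, gaining bins had few spermatocyte islands for their round spermatid count, and the counts are given as a description. Spermatocyte islands numbered 4.16 per Mb in the gaining bins and 7.40 per Mb in the other eligible bins. Round spermatid islands numbered 6.83 and 7.41 per Mb. The median gaining bin had 37 spermatocyte and 63 round spermatid islands, beside 72 and 73 in the other bins. Together the gaining bins had a ratio of 1.64 (1.55 to 1.74), and the other eligible bins had 1.002 (0.978 to 1.03).

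**Figure D1:**
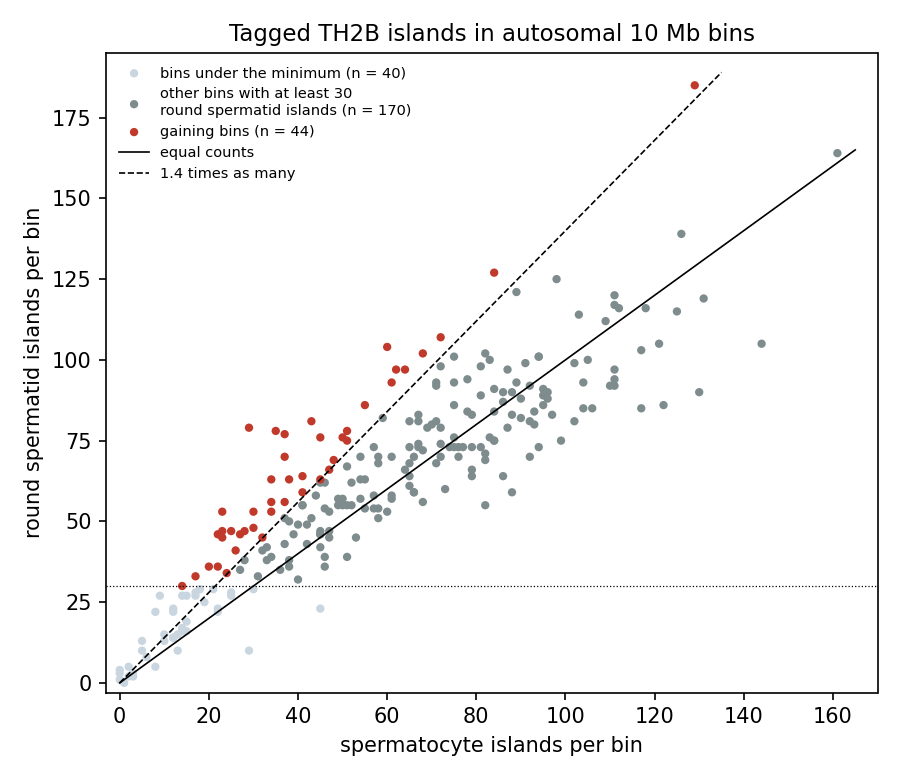
Round spermatid islands (vertical axis) against spermatocyte islands (horizontal axis) in each of 254 autosomal bins of 10 Mb, with 1 point per bin. The solid line marks equal counts, the dashed line 1.4 times as many and the dotted line 30 round spermatid islands. Most of the 44 gaining bins lie at the left, with 14 to 129 spermatocyte islands and a median of 37.

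The ratio was reached in every class of island number. It was reached by 14 of 40 bins with 30 to 49 round spermatid islands (35%, 20.6 to 51.7), 13 of 79 with 50 to 74 (16.5%, 9.06 to 26.5), 12 of 69 with 75 to 99 (17.4%, 9.32 to 28.4) and 5 of 26 with 100 or more (19.2%, 6.55 to 39.4). The intervals of these shares overlap. The counting interval of the ratio lay above 1 in 33 of the 44 gaining bins, which the choice of high ratios favours. Just inside the limit were chromosome 8 from 110 to 120 Mb with 45 spermatocyte and 63 round spermatid islands (1.4), the first 10 Mb of chromosome 2 with 47 and 66, and chromosome 5 from 130 to 140 Mb with 32 and 45. Just outside were chromosome 6 from 90 to 100 Mb with 59 and 82 (1.39), chromosome 17 from 80 to 90 Mb with 37 and 51, and chromosome 4 from 100 to 110 Mb with 45 and 62. A further 16 bins reached the ratio but not the minimum. Among these was chromosome 7 from 40 to 50 Mb, next to the stretch left out, with 15 spermatocyte and 27 round spermatid islands.

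In 7 gaining bins the round spermatid count was at least 2 times the spermatocyte count. The highest ratio was that of chromosome 12 from 20 to 30 Mb, with 29 spermatocyte, 79 round spermatid and 95 wild-type islands (2.72, 1.76 to 4.33). The first 10 Mb of chromosome 18 had 23, 53 and 33 islands in the same order (2.30, 1.39 to 3.94). Chromosome 1 from 180 to 190 Mb had 35, 78 and 80. In the next of these bins islands were fewer. Chromosome 11 from 80 to 90 Mb had 14 spermatocyte and 30 round spermatid islands, the fewest of any gaining bin, beside 103 wild-type islands, the most. Chromosome 2 from 170 to 180 Mb had 22, 46 and 65, the first 10 Mb of chromosome 16 had 37, 77 and 57, and chromosome 7 from 120 to 130 Mb had 23, 47 and 81. On chromosome 11 the interval of the ratio was the widest of the 7, 1.10 to 4.37.

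The other 37 gaining bins had ratios from 1.4 to 1.96. Those with the most tagged islands were on chromosomes 1 and 17. Chromosome 1 from 110 to 120 Mb had 129 spermatocyte, 185 round spermatid and 17 wild-type islands (1.43, lower bound 1.14), and from 120 to 130 Mb it had 84, 127 and 54. The same chromosome had 60, 104 and 63 from 160 to 170 Mb, 68, 102 and 16 in its first 10 Mb, and 30, 53 and 67 from 190 Mb to its end at 197.2 Mb. Chromosome 17 from 50 to 60 Mb had 72, 107 and 41. All except the end of chromosome 1 had over 100 round spermatid islands and a wild-type count well under that number.

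Gaining bins of middle size came from many chromosomes. Chromosome 19 from 30 to 40 Mb had 62 spermatocyte, 97 round spermatid and 66 wild-type islands. Chromosome 11 from 10 to 20 Mb had 64, 97 and 46, and chromosome 5 from 90 to 100 Mb had 61, 93 and 87. Next came chromosome 6 from 130 to 140 Mb with 55, 86 and 35, chromosome 12 from 110 to 120 Mb with 43, 81 and 71, chromosome 14 from 50 to 60 Mb with 51, 78 and 68, and chromosome 10 from 120 to 129.99 Mb, its end, with 45, 76 and 33. These bins show the tagged counts and the wild-type count in either order. Chromosome 2 from 140 to 150 Mb had 50, 76 and 83, chromosome 3 from 30 to 40 Mb had 51, 75 and 50, and chromosome 13 from 40 to 50 Mb had 37, 70 and 66. Chromosome 7 had 48, 69 and 52 from 50 to 60 Mb, and 37, 56 and 59 from 80 to 90 Mb. Chromosome 8 had 41, 64 and 59 from 80 to 90 Mb, and 65 wild-type islands from 110 to 120 Mb.

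Among the gaining bins with few tagged islands the wild-type count was mostly the highest of the 3. Chromosome 6 had 38 spermatocyte, 63 round spermatid and 79 wild-type islands from 110 to 120 Mb, and 34, 63 and 62 from 120 to 130 Mb. Chromosome 3 from 100 to 110 Mb had 34, 56 and 92, and chromosome 14 from 20 to 30 Mb had 34, 53 and 99. Chromosome 9 had 24, 34 and 90 from 40 to 50 Mb, 25, 47 and 77 from 100 to 110 Mb, and 27, 46 and 74 from 110 to 120 Mb. On chromosome 4 the counts were 20, 36 and 62 from 40 to 50 Mb, 22, 36 and 60 from 110 to 120 Mb, and 17, 33 and 73 from 120 to 130 Mb. Chromosome 7 from 130 to 140 Mb had 28, 47 and 92, chromosome 11 from 110 to 120 Mb had 26, 41 and 74, and the bin of chromosome 5 at the threshold had 76 wild-type islands. The first bins of chromosomes 3, 12 and 17 had 41, 59 and 19, 30, 48 and 46, and 23, 45 and 64 islands, and that of chromosome 2 had 43 wild-type islands.

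**Figure D2:**
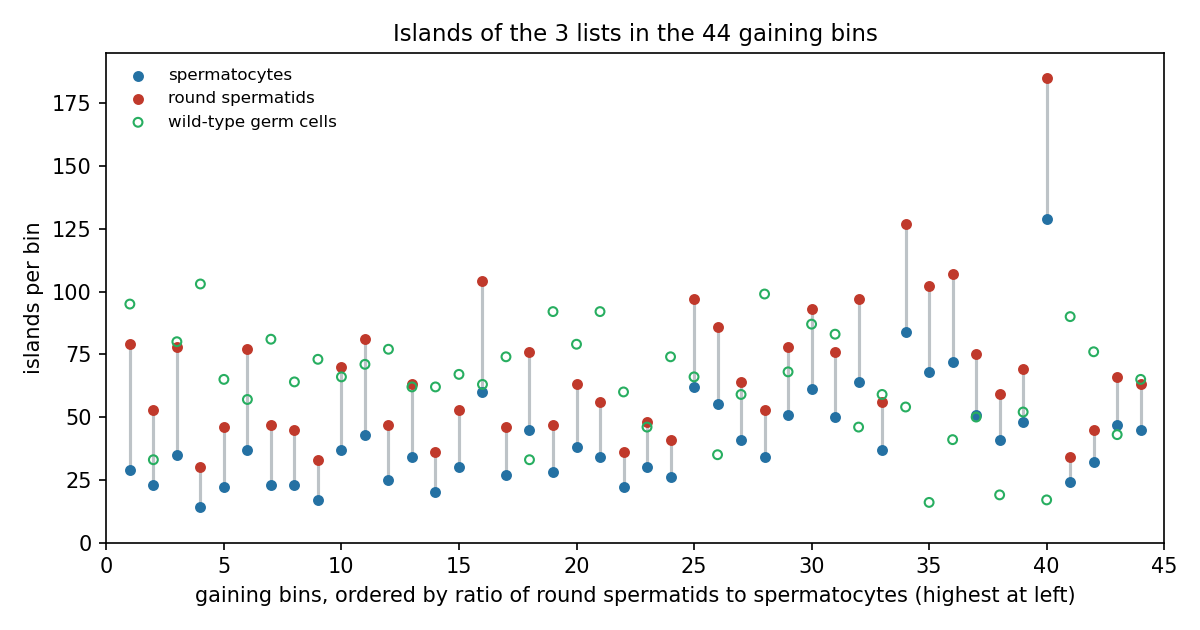
Islands per bin in the 44 gaining bins, ordered along the horizontal axis by their ratio of round spermatid to spermatocyte islands. Each bin has a blue point for spermatocytes, a red point for round spermatids and an open green circle for wild-type germ cells, and the grey line joins the 2 tagged counts. The wild-type count is above the round spermatid count in 22 of the 44 bins and runs from 16 to 103.

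Gaining bins were spread over 18 of the 19 autosomes and were mostly single. Of the eligible bins, 6 of 20 were gaining on chromosome 1 and 4 of 9 on chromosome 7 outside the stretch left out. Chromosome 15 had 0 of 8, and the share over all chromosomes was 44 of 214 (20.6%). Of the gaining bins, 31 had no gaining neighbour. The other bins formed 5 pairs and 1 run of 3. The run lay on chromosome 6 from 110 to 140 Mb, with 127 spermatocyte, 212 round spermatid and 176 wild-type islands. The pairs lay on chromosome 1 from 110 to 130 Mb (213, 312 and 71 islands) and from 180 Mb to the end (65, 131 and 147), on chromosome 4 from 110 to 130 Mb (39, 69 and 133), on chromosome 7 from 120 to 140 Mb (51, 94 and 173) and on chromosome 9 from 100 to 120 Mb (52, 93 and 151).

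Counted over eligible neighbours, 22.6% of the neighbours of gaining bins (14 of 62) were gaining, each adjoining pair being counted from both sides. Among the neighbours of the other eligible bins the share was 16.1% (48 of 298). Shares by bin were 13 of 44 gaining bins with a gaining neighbour (29.5%) and 46 of 170 other bins (27.1%). No run was longer than 3 bins, and neighbouring counts are not independent of each other.

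Gaining bins made up a larger share of the eligible bins near chromosome ends than inside, but the intervals of these shares overlap. The places were not matched for island number. They were 7 of 16 eligible first bins (43.8%, 19.8 to 70.1), 6 of 16 bins before the last (37.5%, 15.2 to 64.6) and 2 of 5 last bins (40%, 5.27 to 85.3), beside 29 of 177 inner bins (16.4%, 11.3 to 22.7). Mouse autosomes carry their centromere at the first end. The gaining first bins were those of chromosomes 1, 2, 3, 12, 16, 17 and 18. No island of any list was called in their first 3 Mb, and whether reads could be placed there was not tested. From 3 to 4 Mb these 7 bins together had 42 spermatocyte, 76 round spermatid and 35 wild-type islands, and from 9 to 10 Mb they had 33, 75 and 43. In each window of 1 Mb between, round spermatids also had the higher count, so the excess ran through all 7 windows that held islands. The 6 bins before the last were on chromosomes 1, 2, 6, 9, 11 and 12.

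The place of the excess inside the gaining bins is a description too, since windows use the counts that chose the bins. Of 438 windows of 1 Mb, round spermatids had more islands in 287 (65.5%), as many in 94 and fewer in 57 (13.0%), and 58 windows had no tagged island at all. Those 58 include the windows in the first 3 Mb of the gaining first bins. In the other eligible bins 738 of 1696 windows (43.5%) had more round spermatid islands and 684 (40.3%) had fewer. More than 50% of the windows favoured round spermatids in 38 of the 44 gaining bins. A single window made up over 50% of the net excess in 5 gaining bins. Chromosome 11 from 110 to 120 Mb was the least even, with more round spermatid islands in 3 windows, fewer in 4, and an excess of 15 in 1 window, as large as that of the whole bin. At the other end, chromosome 1 had 9 of 10 windows in favour of round spermatids both from 110 to 120 Mb and from 180 to 190 Mb.

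The windows of largest excess are given as a description, since they were picked by it. The excess was 15 islands in each of the first 3, which were chr11:111000001-112000000 with 12 spermatocyte and 27 round spermatid islands, chr17:52000001-53000000 with 11 and 26, and chr1:5000001-6000000 with 6 and 21. They had 5, 5 and 3 wild-type islands, beside 6.39 per Mb in all gaining bins and 4.81 per Mb in the other eligible bins. On chromosome 12, chr12:28000001-29000000 had 7 and 20 beside 13 wild-type islands, and chr12:23000001-24000000 had 3 and 15 beside 16. None of the 20 round spermatid islands in the first of these overlapped a spermatocyte island. On chromosome 9, chr9:112000001-113000000 had 6 and 19, again with no overlap. Over all gaining bins only 12.3% of round spermatid islands overlapped a spermatocyte island. The other 4 named were chr1:126000001-127000000 with 14 and 26, chr1:119000001-120000000 with 12 and 23, chr19:31000001-32000000 with 10 and 21, and chr2:9000001-10000000 with 9 and 20. The last 3 had an excess of 11, which 9 windows shared, and were taken for their higher round spermatid counts. Round spermatid islands of these 10 windows had median folds of 1.34 to 1.51 and median input densities of 23.4 to 30 reads per kb.

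Chromosome 12 from 20 to 30 Mb shows how such a bin is built. From 20 to 23 Mb islands were rare, with 4 spermatocyte, 3 round spermatid and 10 wild-type islands. From 23 to 25 Mb round spermatids had 25 islands against 4 in spermatocytes, and wild-type germ cells had 28. From 26 to 29 Mb the counts were 19, 45 and 37. Small counts were left from 25 to 26 Mb (2, 3 and 8) and from 29 to 30 Mb (0, 3 and 12), where the wild-type count was above both tagged counts. In the stretches of larger excess, from 23 to 25 Mb and from 26 to 29 Mb, the wild-type count lay nearer to that of round spermatids than of spermatocytes.

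Wild-type islands, which the rule did not use, were denser in the gaining bins. They numbered 6.39 per Mb there and 4.81 per Mb in the other eligible bins, 1.33 times as many (1.27 to 1.39). The median bin had 65 (16 to 103) and 46.5 (6 to 123), so the 2 sets of bins overlapped over nearly their whole range. Wild-type islands outnumbered round spermatid islands in 22 gaining bins (50%) and in 47 others (27.6%). The rule used the round spermatid count, so these shares are a description. Covered length gave the same order, with 1.78% of the gaining bins and 1.32% of the others under wild-type islands. Spermatocyte islands covered 1.60% and 2.81%, and round spermatid islands 2.57% and 2.68%.

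Wild-type counts tended to be higher where tagged counts were lower. Across the 214 eligible bins the Spearman coefficient between wild-type and spermatocyte counts was -0.583, between wild-type and round spermatid counts -0.456, and between wild-type counts and the ratio of the tagged counts 0.368. These are descriptions over neighbouring bins of the same 3 pairs of libraries, and the spermatocyte count enters both the ratio and the choice of bins. In the 40 bins under the minimum of round spermatid islands wild-type islands were denser still, with 7.49 per Mb.

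**Figure D3:**
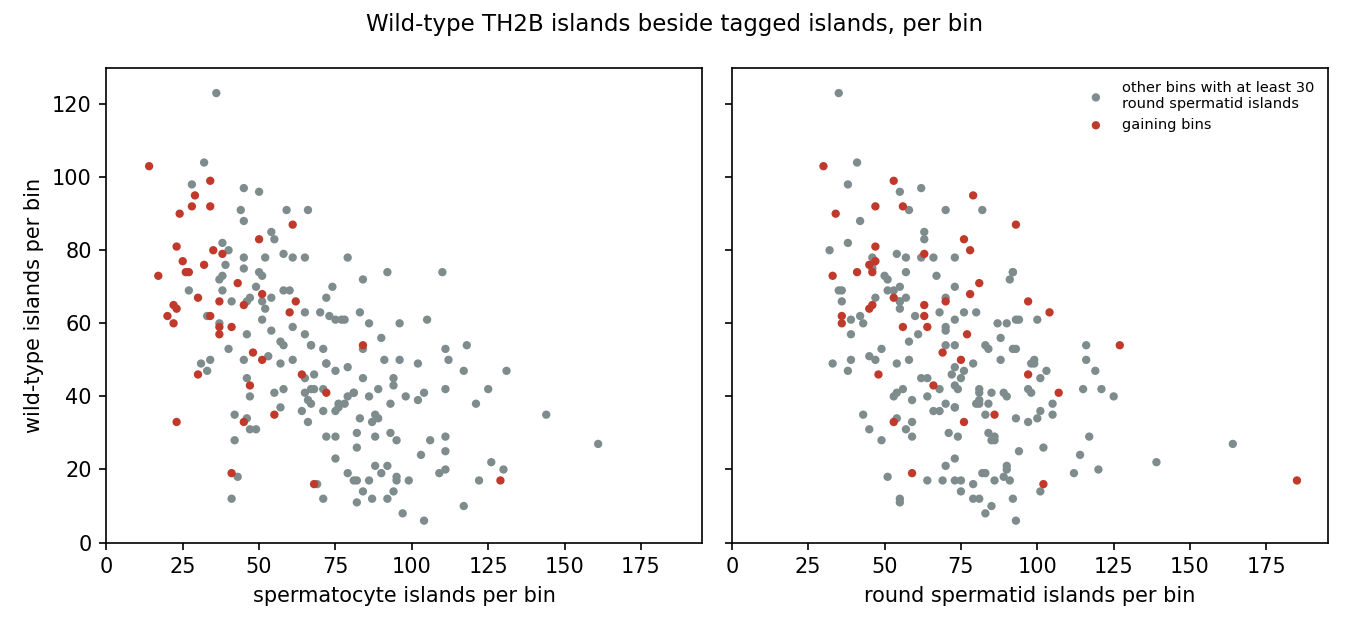
Wild-type islands per bin (vertical axis) against spermatocyte islands (left panel) and round spermatid islands (right panel) in the 214 eligible bins, with gaining bins in red and the other bins in grey. Wild-type counts fall as either tagged count grows, with Spearman coefficients of -0.583 and -0.456.

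When bins of like tagged counts were set side by side, the wild-type difference depended on which list was matched. Among bins with 75 to 99 round spermatid islands, gaining bins had 1.66 times (1.53 to 1.80) as many wild-type islands per Mb as the others. In the classes of 30 to 49, 50 to 74 and 100 or more the ratio was 1.13 (1.04 to 1.22), 1.18 (1.09 to 1.27) and 1.07 (0.905 to 1.25). Among bins with 30 to 59 spermatocyte islands, the gaining bins had a median of 63.5 wild-type islands and the others 66. Above that range the medians were 50 in 8 gaining bins and 40 in the other bins, and below it 74 in 14 gaining bins and 83.5 in 2 others. The spermatocyte counts themselves were not fully matched within these classes. Their medians, from the lowest class up, were 23, 39.5 and 66 in gaining bins and 27.5, 46 and 84 in the others. Wild-type medians were thus near each other in the middle class. In the outer classes the wild-type difference cannot be told apart from that in spermatocyte counts.

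The gaining bins with the most wild-type islands were chromosome 11 from 80 to 90 Mb (103), chromosome 14 from 20 to 30 Mb (99) and chromosome 12 from 20 to 30 Mb (95). Those with the fewest were the first 10 Mb of chromosome 1 (16), chromosome 1 from 110 to 120 Mb (17) and the first 10 Mb of chromosome 3 (19). The 44 bins therefore include stretches at both ends of the wild-type range.

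Islands in the gaining bins had slightly lower folds than those of the other eligible bins in every list, and folds near those of the bins under the minimum. The fold over input deposited by the authors had a median of 1.49 (1.47 to 1.499) in spermatocyte islands, beside 1.52 (1.51 to 1.52) in the other eligible bins. Round spermatid islands had 1.45 (1.44 to 1.46) and 1.47 (1.47 to 1.48), and wild-type islands 1.44 (1.43 to 1.44) and 1.46 (1.45 to 1.47). In the 40 bins under the minimum the medians were 1.49, 1.46 and 1.44 in the same order, with intervals that overlap those of the gaining bins. Round spermatid folds were below spermatocyte folds in both sets of bins, and the bin median was lower in round spermatids in 30 of 44 gaining bins and in 136 of 170 others.

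Folds of at least 2 were about as frequent as in the autosomal bins at large, or slightly rarer. They were reached by 7.76% of spermatocyte islands there (6.57 to 9.08), beside 9.14% over all the autosomal bins. For round spermatids the shares were 5.83% (5.01 to 6.73) and 6.61%, and for wild-type islands 5.19% (4.397 to 6.08) and 6.25%. Bins under the minimum had 6.12%, 6.28% and 4.62%. The excess of round spermatid islands was also counted among stronger islands. Limited to folds of 1.5 or more, there were 1226 round spermatid and 864 spermatocyte islands, a ratio of 1.42, while the other eligible bins had 5667 and 6632, also a lower ratio than for all their islands. Among islands with an FDR of at most 0.0001 the counts were 1406 and 839, a ratio of 1.68, beside 6264 and 6415 in the other eligible bins. The stronger islands are part of the counts that chose the bins, so these ratios are a description.

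Among the 44 bins the median fold ran from 1.37 to 1.69 for spermatocytes, 1.36 to 1.57 for round spermatids and 1.38 to 1.57 for wild-type islands. The highest spermatocyte median was that of chromosome 4 from 110 to 120 Mb, where round spermatids had 1.51. The highest round spermatid median was that of chromosome 6 from 130 to 140 Mb, where spermatocytes had 1.56. The lowest round spermatid median was that of the first 10 Mb of chromosome 1, where spermatocytes had 1.403. In chromosome 12 from 20 to 30 Mb, the bin of highest ratio, the medians were 1.46 for spermatocytes, 1.41 for round spermatids and 1.42 for wild-type islands.

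Input density, the control reads per kb of island, was a little higher in the gaining bins than in the other eligible bins. Its median was 22.8 reads per kb (22.6 to 23.1) in spermatocyte islands and 22.5 (22.4 to 22.5) in the other eligible bins, 25.5 (25.3 to 25.7) and 25 in round spermatid islands, and 33.4 (33.1 to 33.6) and 32.2 (32.1 to 32.4) in wild-type islands. In the bins under the minimum the medians were 23.1, 25.8 and 33.4, level with the gaining bins or above them. The depth of the control libraries outside islands was not used, so a level in 1 list was not read against that in another. The ratio of the round spermatid to the spermatocyte bin median was 1.12 in the median gaining bin (1.02 to 1.27) and 1.11 in the median of the others. The step in input density between the tagged lists was thus about the same in both sets of bins.

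**Figure D4:**
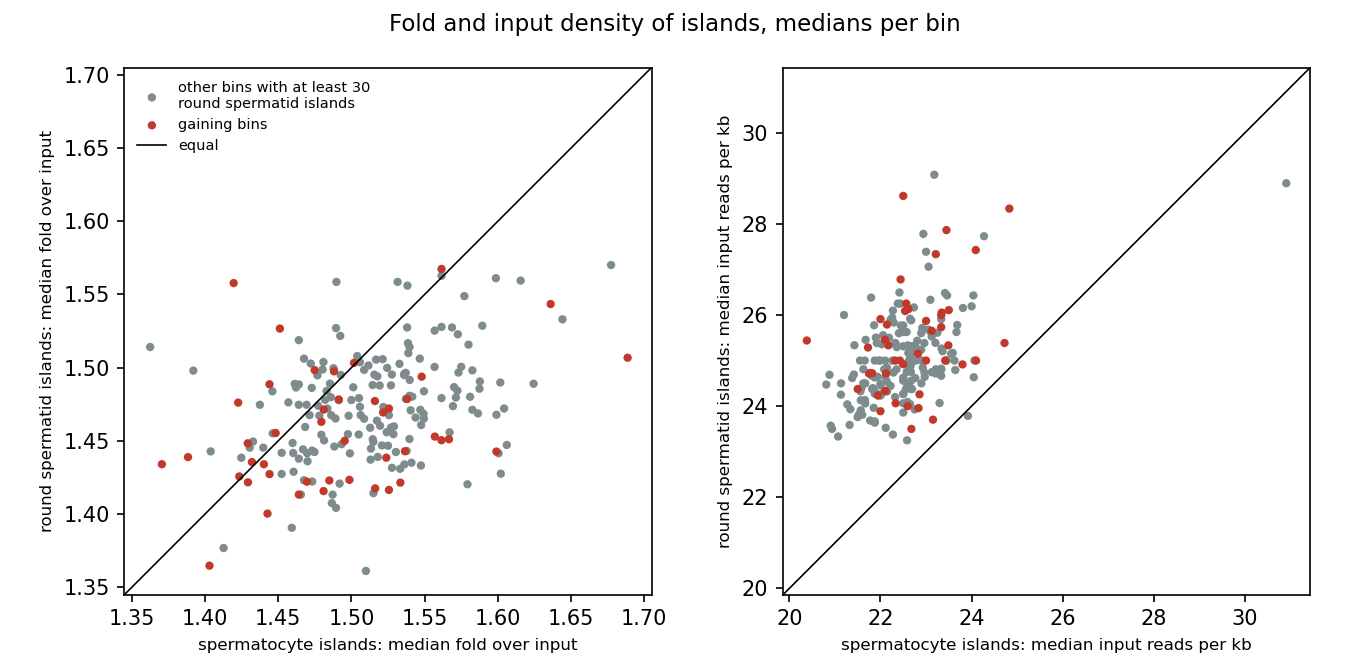
Median fold over input (left panel) and median input reads per kb (right panel) of round spermatid islands against spermatocyte islands, with 1 point per eligible bin, gaining bins in red, the others in grey and a line of equal values. Round spermatid folds lie below spermatocyte folds in 30 of 44 gaining bins, and round spermatid input density lies above in all 44 and in 168 of 170 others.

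Read-rich islands were more frequent in round spermatids than in spermatocytes within the gaining bins. An island was counted as dense above 2 times the autosomal median of its list, a limit of 45 input reads per kb for spermatocytes, 50 for round spermatids and 65.5 for wild-type islands. Dense islands were 50 of the 2987 round spermatid islands (1.67%, 1.24 to 2.20) and 9 of the 1818 spermatocyte islands (0.495%, 0.227 to 0.938). In the other eligible bins the shares were 1.15% and 0.974%, and among wild-type islands 0.608% and 0.663%. The bins under the minimum had higher shares, 3.52% of round spermatid and 2.29% of spermatocyte islands. Dense islands lay in 23 gaining bins in round spermatids and in 8 in spermatocytes. Without them, 40 of the 44 bins still reached the ratio. Dense islands are part of the tagged counts that chose the bins, so the contrast between the 2 tagged lists is a description.

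Chromosome 5 from 90 to 100 Mb held 13 of the dense round spermatid islands, 2 dense spermatocyte islands and 9 dense wild-type islands. Without them its counts gave a ratio of 1.36 in place of 1.52. The 3 longest round spermatid islands of all gaining bins lay there, at chr5:94342801-94369800, chr5:94286401-94310000 and chr5:96158801-96181200. Their folds were 1.08, 1.09 and 1.07, on input densities of 78.9, 73.8 and 71.4 reads per kb. The first overlapped islands of both other lists, the second a wild-type island and the last neither. The first 10 Mb of chromosome 16 had 5 dense round spermatid islands and no dense spermatocyte island, and kept a ratio of 1.95 without them. The first 10 Mb of chromosome 3 had 3 and fell under the threshold, to 1.37.

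The highest input density among round spermatid islands of the gaining bins was at chr12:3109001-3110200, close to the centromere end, with 5038 ChIP and 4135 input reads in 1200 bp and a fold of 1.29 (1.24 to 1.35). It overlapped a spermatocyte island and no wild-type one. The next were chr18:7319401-7325200 with 2460 ChIP and 2461 input reads (fold 1.06, 1.001 to 1.12), chr3:5860401-5860600, chr17:53291801-53292200 and chr4:110177401-110177600. The last 3 were only 200 to 400 bp long, with 53 to 110 ChIP reads and folds of 1.36 to 1.96. All except the chromosome 18 island overlapped a spermatocyte island. The first 2 had the most reads, and all except chr3:5860401-5860600 had folds under the median of 1.45.

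Island lengths had the same medians in both sets of bins, at 3600 bp for spermatocytes, 3400 bp for round spermatids and 2600 bp for wild-type islands. The median round spermatid island of the gaining bins held 119 ChIP and 86 input reads, beside 115 and 82 elsewhere. The median spermatocyte island held 105 and 81, beside 103 and 78.

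Most round spermatid islands of the gaining bins had no spermatocyte island at the same place. Of the 2987, 368 overlapped one by at least 1 bp (12.3%, 11.2 to 13.6), beside 15.999% (15.4 to 16.7) in the other eligible bins. From the other side, 364 of 1818 spermatocyte islands met one of round spermatids (20.02%, 18.2 to 21.9), beside 16.04% (15.4 to 16.7). Fewer spermatocyte islands leave fewer places to overlap, so the first share is lower and the second higher by the rule itself. The 2619 round spermatid islands without overlap lay at a median of 42.6 kb from the nearest spermatocyte island, beside 30.6 kb in the other bins. Their median fold was 1.46 (1.45 to 1.47) and that of the 368 overlapping islands 1.42 (1.39 to 1.45). Input reached a median of 25.3 reads per kb in them and 26.5 in the overlapping islands, and they were shorter, with 3400 against 3800 bp.

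Folds were nearly equal at places that had an island in each tagged list. Overlapping islands merged into 359 regions in the gaining bins. The fold of round spermatids over that of spermatocytes had a median of 0.978 (0.956 to 0.999), beside 0.982 (0.972 to 0.991) in 1977 regions of the other bins. Its 5th and 95th percentiles were 0.706 and 1.32, beside 0.698 and 1.35. A ratio of at least 2 was found in 2 regions and of at most 0.5 in 1. The round spermatid islands of a region were longer than the spermatocyte ones in 171 (47.6%), beside 43.8% in the other bins, and the median ratio of lengths was 1 (0.944 to 1.07).

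Beside the other eligible bins, tagged islands met wild-type islands somewhat more often in the gaining bins. Wild-type islands met spermatocyte islands less often there. Of the round spermatid islands there, 192 overlapped a wild-type island (6.43%, 5.57 to 7.37), beside 4.25% (3.91 to 4.62) in the other eligible bins. Of the spermatocyte islands, 101 did (5.56%, 4.55 to 6.71), beside 4.17% (3.82 to 4.53). Wild-type islands were themselves 1.33 times as dense there, and how much of the difference this gives was not tested. Seen from the wild-type list, 7.09% of its islands in gaining bins (6.16 to 8.10) overlapped round spermatid islands and 3.61% (2.95 to 4.38) spermatocyte islands, beside 6.56% and 6.45% in the other bins. By the rule itself spermatocyte islands were sparser in the gaining bins, with 4.16 per Mb beside 7.40. Fewer of them leave fewer places to meet, so the lower share of 3.61% is a description. In the bins under the minimum, 9.04% of round spermatid and 7.84% of spermatocyte islands met wild-type islands. Of the wild-type islands there, 2.62% met round spermatid and 1.82% spermatocyte islands. Higher shares of tagged islands and a lower share of wild-type ones meeting spermatocyte islands were thus not particular to the gaining bins. Round spermatid islands with and without a spermatocyte island met wild-type islands about as often, in 6.79% (4.44 to 9.87) and 6.38% (5.47 to 7.38). Islands in all 3 lists were 25 of the 2987 (0.837%, 0.542 to 1.23), beside 0.788% elsewhere.

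The islands of highest fold rested on few reads. The strongest round spermatid islands with at least 50 ChIP reads and no spermatocyte island were led by chr8:84764601-84765200, with 51 ChIP and 13 input reads and a fold of 4.16 (2.23 to 8.33). It was followed by chr6:132780801-132782400 with 70 and 22 reads (3.37, 2.06 to 5.72), chr5:96265001-96266000 with 75 and 24 (3.31, 2.07 to 5.49), chr7:84252201-84255000 with 95 and 31 (3.25, 2.15 to 5.04) and chr3:35579001-35581200 with 98 and 34 (3.05, 2.05 to 4.66). None overlapped a wild-type island, and over all gaining bins only 6.43% of round spermatid islands did. The nearest spermatocyte island was 10400 bp from the first and 378000 bp from the last.

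The strongest spermatocyte islands of the same bins were as high. They were chr2:174318201-174320600 with 83 ChIP and 24 input reads (4.05, 2.55 to 6.67), chr2:8035801-8038200 (3.86, 2.42 to 6.37) and chr1:186082401-186084600 (3.56, 2.30 to 5.66), and none had a round spermatid or wild-type island. Among round spermatid islands found in all 3 lists, the highest folds were 2.07 at chr13:45874601-45878200, 1.91 at chr14:59896201-59899600 and 1.85 at chr5:134126001-134130800. These had 128 to 203 ChIP reads. The strongest wild-type islands were chr12:116851201-116852200 with 55 ChIP and 5 input reads (11.1, 4.49 to 35.6), chr6:119735201-119736400 (3.67) and chr9:109634201-109635000 (3.46), and none met a tagged island. Over all gaining bins, 20.02% of spermatocyte islands met a round spermatid island and 5.56% a wild-type one. Of the wild-type islands, 7.09% met round spermatid and 3.61% spermatocyte islands, so most islands of either list had no overlap. All named islands are extremes of long lists, for which the intervals make no allowance. No gene is named for any locus, because the annotation used here belongs to a later build than mm9.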

How the data were processed

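Members, groups of bins and comparisons were chosen with earlier results of these data known. Islands were called with SICER on mm9, per the submitters' processing notes, with a 200 bp window and 600 bp gap according to the lists' names. No aligner or read filter is given in the sources used here. The authors deposited, for each island, counts of ChIP and control reads, a p-value, a fold and an FDR p-value (all below 0.01). Meanings were read from the values of 8 columns without a header. The deposited fold equals ChIP over control counts after division by a constant (0.854 for spermatocytes, 0.944 for round spermatids, 0.989 for wild-type cells). The control was assumed to be the matching input, which the lists do not state. The input of wild-type cells carries the TH2B antibody in its labels and was taken as input by its title.

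Ends were brought to 1 convention, and coordinates are counted from 1. Islands were assigned to bins by midpoint, and chromosome lengths came from GenomeInfoDb 1.38.1. Ratios of counts and shares have exact (Clopper-Pearson) intervals, and medians have intervals from binomial order statistics over islands, which are not independent. Named regions were all gaining bins, those at the thresholds, the 10 windows of 1 Mb with the largest excess, and islands of highest fold or input density. The islands found in all 3 lists, the longest ones and the strongest ones of spermatocytes were named after their values were seen. Counting and intervals were tested on simulated lists. No test was made, as each group had 1 library. Python 3.11.15, numpy 2.4.6, pandas 2.3.3, scipy 1.17.1 and matplotlib 3.10.9 were used.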

Additional observations from a re-analysis of the deposited data

How the results depend on the processing

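Of 37 alternatives, 21 kept the value inside its interval (or, for the number of bins, inside 1.5 times), 16 moved it and 0 reversed it. Reversal means a change of direction and could be labelled only for the tagged ratio and the wild-type density ratio. The tagged ratio belongs to bins chosen for a high ratio, so its lack of a reversal is no support. The number of gaining bins was 106 with 5 Mb bins (and at least 15 islands), of which 61 overlapped one of the 44. With equal numbers of islands in both lists it was 25. These are among the 44 by construction, since that setting only takes away round spermatid islands. An FDR of at most 0.0001, with the minimum lowered to 15 islands, kept 54 bins, of which 33 were among the 44. Of the 36 kept by covered base pairs, 32 were among them. With the grid shifted by 5 Mb, 31 of 39 bins overlapped one of the 44. Islands with a fold of at least 1.5 gave a tagged ratio of 1.42 and a wild-type density ratio of 1.19, and an FDR of at most 0.0001 gave 1.22 for the latter. That FDR raised the median folds to 1.69 for spermatocytes, 1.63 for round spermatids and 1.65 for wild-type islands, and lowered the median input densities to 21.1, 23.1 and 30.3 reads per kb, since it keeps stronger islands. Summed reads gave folds of 1.43 for round spermatids and 1.42 for wild-type islands, and densities of 23.8, 27.5 and 34.4. Depth outside islands was not used here, so how far it shapes the counts was not tested.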
